A study of Mus musculus with 6 samples.

Results

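The 10 genes described here make and load MHC class I molecules: the heavy chains H2-K1 and H2-D1, the light chain B2m, the peptide transporter and its partner Tap1, Tap2 and Tapbp, the immunoproteasome subunits Psmb8, Psmb9 and Psmb10, and the peptide trimming enzyme Erap1. They were taken by symbol from probe sets that the platform annotation assigns to exactly 1 gene, and each gene was read from its brightest probe set over 6 arrays. All 10 were found, among 18193 genes measured. RNA of mouse embryonic fibroblasts, connective tissue cells cultured from embryos, was hybridized to Affymetrix arrays. The labels give 3 arrays of c-abl/arg knockout cells, called DKO here, and 3 arrays of wild-type (WT) cells. The genes meant are Abl1 and Abl2, which encode a pair of non-receptor tyrosine kinases. Both groups came from C57BL/6 embryos of 14 days of gestation, with the sexes pooled, and grew in the same medium without a stated stimulus. The labels do not say whether the repeats were separate cultures or embryos, so the p-values cover array-to-array spread alone, and that spread may be technical. The stated aim was to learn how Abl kinases bear on gene expression.

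MHC class I molecules carry short peptides from inside the cell to its surface, where cytotoxic T cells read the peptides and natural killer cells sense the molecules. The proteasome cuts proteins into peptides, and its interferon-inducible form, the immunoproteasome, exchanges the catalytic subunits Psmb5, Psmb6 and Psmb7 for Psmb8, Psmb9 and Psmb10. The Tap1 and Tap2 transporter moves peptides into the endoplasmic reticulum, tapasin (Tapbp) holds empty class I molecules beside it, Erap1 trims the peptides, and the heavy chain then leaves with B2m. Interferon-gamma, the factor Irf1 and the transactivator Nlrc5 are known to raise most of these genes together.

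The start regions of 5 of the genes are shown because kappa-B, CCAAT and interferon response elements are the usual landmarks of class I promoters. Each is the RefSeq window of 250 bases before to 30 bases after the annotated start, in the build GRCm38.p6, read 5′ to 3′ on the strand of the gene. The H2-K1 window lies at chr17:34000318-34000597 on the minus strand, the H2-D1 window at chr17:35262844-35263123 on the plus strand, the B2m window at chr2:122147437-122147716 on the plus strand, the Tap1 window at chr17:34187306-34187585 on the plus strand and the Erap1 window at chr13:74639603-74639882 on the plus strand. Capitals mark matches, on either strand, to the kappa-B motif, to CCAAT, to the interferon-stimulated response element (ISRE) motif, which is GAAA, any pair of bases and GAAA again, and to GAANNGAAA, a form with 1 A fewer in its first GAAA.
H2-K1: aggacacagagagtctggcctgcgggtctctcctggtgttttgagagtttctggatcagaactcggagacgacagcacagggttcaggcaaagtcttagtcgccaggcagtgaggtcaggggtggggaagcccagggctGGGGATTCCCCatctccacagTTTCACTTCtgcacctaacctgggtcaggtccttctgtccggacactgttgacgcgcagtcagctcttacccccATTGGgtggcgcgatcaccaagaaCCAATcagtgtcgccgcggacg
H2-D1: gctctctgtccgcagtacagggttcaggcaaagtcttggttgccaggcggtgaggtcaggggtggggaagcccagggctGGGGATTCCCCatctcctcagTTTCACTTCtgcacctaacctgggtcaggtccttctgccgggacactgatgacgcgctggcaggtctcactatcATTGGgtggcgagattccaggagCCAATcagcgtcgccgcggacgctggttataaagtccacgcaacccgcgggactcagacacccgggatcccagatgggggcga
B2m: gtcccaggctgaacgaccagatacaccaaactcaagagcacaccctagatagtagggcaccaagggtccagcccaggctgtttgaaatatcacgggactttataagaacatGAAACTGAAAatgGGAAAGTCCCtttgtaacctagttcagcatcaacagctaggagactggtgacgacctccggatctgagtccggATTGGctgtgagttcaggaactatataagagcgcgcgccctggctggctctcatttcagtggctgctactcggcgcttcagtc
Tap1: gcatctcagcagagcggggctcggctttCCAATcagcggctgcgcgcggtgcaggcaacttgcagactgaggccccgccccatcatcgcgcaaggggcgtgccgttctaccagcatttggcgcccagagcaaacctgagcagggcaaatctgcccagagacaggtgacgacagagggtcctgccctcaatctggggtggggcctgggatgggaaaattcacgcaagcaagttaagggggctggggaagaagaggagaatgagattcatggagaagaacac
Erap1: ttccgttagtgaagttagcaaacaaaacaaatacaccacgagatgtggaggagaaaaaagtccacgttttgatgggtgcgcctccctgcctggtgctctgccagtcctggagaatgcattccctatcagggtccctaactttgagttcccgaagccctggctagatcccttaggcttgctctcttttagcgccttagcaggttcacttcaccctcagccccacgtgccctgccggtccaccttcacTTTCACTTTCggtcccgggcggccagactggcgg
The search ran over windows of 300 bases, with 50 bases after the start, and all of the genes but Tap2 had one, 9 of the 10. Both heavy chain genes hold a kappa-B match followed by GAANNGAAA and a pair of CCAAT matches, and their windows had 187 of 208 aligned positions in common (89.9%). In H2-K1 the GAANNGAAA match lies at -90 to -82 from the start, and in H2-D1 at -150 to -142. From a second annotated H2-K1 start the same match lies at -104 to -96, so these positions depend on the start used. B2m holds the ISRE motif at -139 to -130 beside a kappa-B match at -126 to -117. Erap1 holds the ISRE motif across its start, from -4 to 6. Tap1 and Psmb9 lie head to head, and their windows share 275 of 300 bases, read on opposite strands, with 1 CCAAT match and no match to either interferon response motif. Over all 32851 windows of that length, 3.44% hold the ISRE motif, 7.52% GAANNGAAA, 4.51% the kappa-B motif and 37.4% CCAAT. Among the 9 genes with a window these counts were 2, 2, 3 and 6. The motif TGACG, found in 20.8% of all windows, was in 5 of the 9, and TTCNNNGAA, found in 8.30%, was in 1, Psmb8. The shares are of windows and the counts are of genes, which are not all separate. Tap1 and Psmb9 count the same CCAAT and TGACG sites. The GAANNGAAA count and most of the kappa-B count come from the similar H2-K1 and H2-D1 windows. GAANNGAAA was added to the search after the sequences had been seen. A match is only a run of letters, and no binding was measured.

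The arrays had similar trimmed means, of 107.8 to 109.95. Median signals were 14.4 to 14.7 in DKO and 13.4 to 13.7 in WT arrays, so every DKO array had the higher median. Correlations of log2 signals across genes were at least 0.998 within a group and at most 0.904 between groups, across genes that are not independent replicates. For Abl1 the brightest probe set read 169.8 ± 8.22 in DKO and 184.8 ± 4.46 in WT arrays, and for Abl2 it read 254.1 ± 11.9 in DKO and 256.1 ± 9.30 in WT arrays (SD, n = 3 each). As deposited neither passed the test (limma adjusted p = 0.0929 and 0.874), but both were higher in DKO with poly-A spike scaling (0.36 and 0.48) and lower with hybridization spike scaling (-0.35 and -0.26). In the fit over all probe sets the other 2 of Abl1 were higher in DKO as deposited, one at 10.6 ± 0.539 in DKO and 6.99 ± 1.12 in WT arrays (difference 0.21, limma adjusted p = 0.0012) and one at 22.9 ± 2.34 in DKO and 16.05 ± 1.41 in WT arrays (difference 0.28, limma adjusted p = 0.00586). Neither of the other 2 of Abl2 passed (limma adjusted p = 0.313 and 0.567). Where these probes lie relative to the deleted exons is not given in the sources used here, so they do not check the labels.

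In DKO cells, 9 of the 10 genes fell and 1, Psmb8, rose. The test was limma on log2(signal + 16), adjusted over all genes, with a call at an adjusted p under 0.05. Of all genes, 59.7% passed, 35.5% as falls and 24.2% as rises. At least 2-fold falls were seen in 7 of the 10, against 8.77% of all genes. The median difference of the 10 genes was -1.74 on the log2 scale, against -0.03 over all genes tested. The 3 DKO values lay apart from the 3 WT values for all 10 genes, as they did for 64.7% of all genes, 39% with DKO lower. In bulk RNA, fewer cells of a type and less RNA per cell cannot be told apart.

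The heavy chains bind the peptide and define what T cells see. H2-K1 had signals of 697, 738 and 806 in the DKO arrays, against 5657, 5927 and 6011 in the WT arrays. Every DKO array was far below every WT array, and the mean of 747.0 ± 55.4 in DKO was 12.7% of the mean of 5865 ± 185 in WT (SD, n = 3 each). The difference was -2.95 ± 0.05 on the log2 scale (SE; limma adjusted p = 2.19e-13). H2-D1, the second classical heavy chain, had signals of 1408, 1369.7 and 1364 in the DKO arrays, against 5371, 5546 and 5689 in the WT arrays. The groups did not overlap, and the means were 1381 ± 23.8 in DKO and 5535 ± 159 in WT (difference -1.99 ± 0.04, limma adjusted p = 4.72e-13).

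B2m encodes beta-2 microglobulin, the small invariant chain without which most heavy chains do not reach the surface. Its signals were 4182, 4300.4 and 4434 in the DKO arrays, against 6465, 6489 and 6580.1 in the WT arrays. The groups lay apart here as well, but by a smaller distance: the DKO mean of 4305 ± 126 was 66.1% of the WT mean of 6511 ± 61.0 (difference -0.60 ± 0.04, limma adjusted p = 3.51e-08). Under scaling to poly-A spike controls the B2m difference was -0.08, and its call was lost (limma adjusted p = 0.608).

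**Figure D1:**
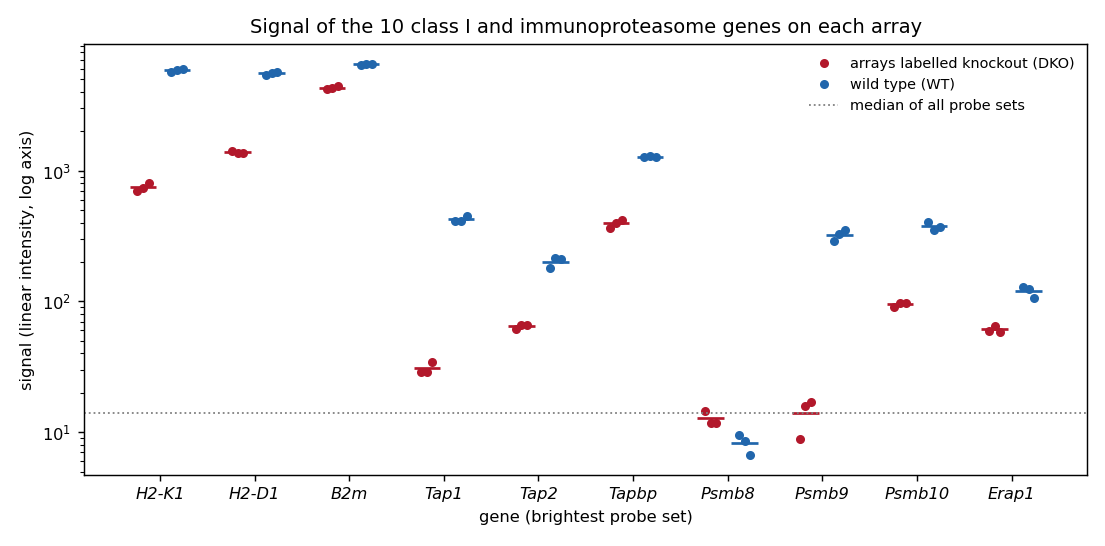
Signal (linear units, log axis) of the brightest probe set of each of the 10 genes, with 1 point per array, DKO left of WT, bars at the group means and a dotted line at the median of all probe sets, 13.96. For 9 genes the 3 DKO points lie below the 3 WT points, and the Psmb8 points, between 6.66 and 14.6, lie the other way near the bottom of the range.

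Tap1 is the subunit of the peptide transporter that pairs with Tap2. Its signals were 29.1, 28.9 and 34.3 in the DKO arrays, against 409, 412 and 451 in the WT arrays. The DKO mean of 30.8 ± 3.09 was 7.25% of the WT mean of 424 ± 23.6, with no overlap (difference -3.24 ± 0.07, limma adjusted p = 9.61e-13). Tap2 had signals of 61.8, 66.2 and 65.8 in the DKO arrays, against 179, 213 and 211 in the WT arrays. All 3 DKO values were under the lowest WT value, and the means were 64.6 ± 2.45 in DKO and 201 ± 19.1 in WT (difference -1.42 ± 0.07, limma adjusted p = 2.93e-09). Tapbp, tapasin, which bridges class I molecules to the transporter, had signals of 364, 396 and 422 in the DKO arrays, against 1264, 1289 and 1280.1 in the WT arrays. Its groups were also apart, with means of 394 ± 29.2 in DKO and 1278 ± 12.4 in WT (difference -1.66 ± 0.05, limma adjusted p = 2.19e-11).

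Of the immunoproteasome subunits, 2 fell and 1 rose. Psmb9, also called LMP2, had signals of 8.93, 15.7 and 17.1 in the DKO arrays, against 291, 329.8 and 349.7 in the WT arrays. The groups lay apart (difference -3.51 ± 0.11, limma adjusted p = 2.45e-11), and the means were 13.9 ± 4.38 in DKO and 323 ± 30.1 in WT. The DKO mean lay close to 13.96, the median of all probe sets, so the size of the difference depended on the offset: it was -4.49 with an offset of 1 and -2.31 with an offset of 64. Psmb10, also called MECL-1, had signals of 89.8, 97.5 and 96.9 in the DKO arrays, against 403, 353 and 369.5 in the WT arrays. The DKO mean of 94.7 ± 4.31 was 25.3% of the WT mean of 375 ± 25.2, with no overlap (difference -1.82 ± 0.06, limma adjusted p = 4.38e-11).

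Psmb8, also called LMP7, had signals of 14.6, 11.8 and 11.8 in the DKO arrays, against 9.53, 8.55 and 6.66 in the WT arrays. All DKO values were the higher ones, and the difference of 0.25 ± 0.05 passed the test (limma adjusted p = 0.00149); it ran from 0.09 to 0.58 over the alternatives. Both group means, 12.7 ± 1.61 in DKO and 8.25 ± 1.46 in WT, were below the median of all probe sets, and the second Psmb8 probe set was at 4.07 ± 0.0420 in DKO and 4.16 ± 0.261 in WT. Psmb8 had only these 2 probe sets, and neither had a group mean above that median.

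Erap1, the aminopeptidase of the endoplasmic reticulum, had signals of 59.6, 64.9 and 58.7 in the DKO arrays, against 129, 124 and 106 in the WT arrays. The groups were apart, with means of 61.0 ± 3.34 in DKO and 119 ± 12.0 in WT (difference -0.81 ± 0.08, limma adjusted p = 1.57e-06). The difference shrank to -0.38 with both Erap1 probe sets averaged and to -0.38 under poly-A spike scaling, and it passed in both (limma adjusted p = 0.00205 and 0.0026).

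How far partners moved was set side by side as the change of 1 gene minus that of the other in the same arrays. Such a contrast between bright genes barely depends on how the arrays were scaled. Over 7 pairs the two-sided exact permutation test over 6 arrays could not go below 0.1, so no pair could pass, and the Benjamini-Hochberg value at that p was 0.117. In 6 of the 7 pairs the DKO arrays lay wholly on one side of the WT arrays (exact p = 0.1 each). The groups lay apart for 64.7% of all single genes, and the share among pairs of genes was not computed. That count is therefore no sign by itself that partners moved unequally. H2-K1 minus its light chain B2m differed by -2.35, DKO minus WT, and H2-K1 minus H2-D1 by -0.96. That gap between the heavy chains depends on the H2-K1 probe set. The next brightest, at 906 in DKO and 3751 in WT arrays, differed by -2.03, near the -1.99 of H2-D1. Psmb9 minus its constitutive counterpart Psmb6 differed by -2.81, and Psmb10 minus Psmb7 by -1.87. Psmb8 minus Psmb5 differed by 0.08 (exact p = 0.4), a value that turned to -0.07 with an offset of 64 and to -0.23 with poly-A spike scaling. Tap1 minus Tap2 differed by -1.81, but by 0.54 when all Tap1 probe sets were averaged. Psmb9 minus Tap1, the head-to-head pair, differed by -0.28, and by 0.05 with an offset of 64.

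**Figure D2:**
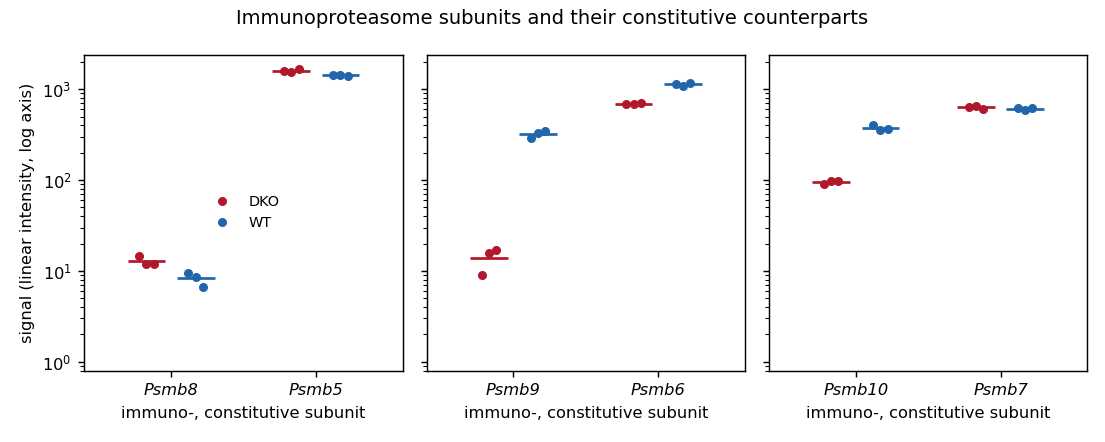
Signal (linear units, log axis) of each immunoproteasome subunit and its constitutive counterpart, with 1 point per array, DKO left of WT, and bars at the means. Psmb9 and Psmb10 were low in the DKO arrays, at means of 13.9 and 94.7, against 323 and 375 in WT arrays. Psmb8 was dim in both groups, at 12.7 in DKO and 8.25 in WT arrays. Among the counterparts, Psmb6 was lower in DKO, at 690 against 1130 in WT arrays. Psmb5 (1606 and 1432) and Psmb7 (634 and 612) were bright in DKO and WT arrays alike.

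The constitutive catalytic subunits, which most cells use, gave 1 rise and 1 fall among 3. Psmb5 had 1606 ± 60.7 in DKO and 1432 ± 27.3 in WT arrays (difference 0.16, limma adjusted p = 0.00343), a direction that turned to -0.10 under hybridization spike scaling. Psmb6 had 690 ± 13.6 in DKO and 1130 ± 51.9 in WT arrays (difference -0.70, limma adjusted p = 1.5e-08), and under poly-A spike scaling its difference of -0.19 did not pass (limma adjusted p = 0.0841). Psmb7 had 634 ± 23.5 in DKO and 612 ± 13.9 in WT arrays and did not pass as deposited (difference 0.05, limma adjusted p = 0.321). It was at 0.56 under poly-A and at -0.21 under hybridization spike scaling, where it passed in opposite directions.

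The 10 genes had 28 probe sets with 1 gene in the annotation. In the fit over all probe sets, 22 fell, 1 rose and 5 did neither, where 27.2% of all probe sets fell and 24.9% rose. Of the 18 probe sets that were not the brightest of their gene, 13 had the same call as the brightest and 0 had the opposite call. Of the 21 with a mean above the median of all probe sets in at least 1 group, 20 fell. The exception was the second Erap1 probe set, with 28.3 ± 4.23 in DKO and 26.9 ± 4.88 in WT arrays (difference 0.05, limma adjusted p = 0.728). Some of the 21, such as one of H2-K1 at 10.5 in DKO and 42.0 in WT arrays, passed through WT alone. Their falls are partly built into that filter, and the share of falls among all probe sets so filtered was not computed.

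Some of these probe sets are less specific than others. All 4 of H2-K1 and 7 of the 9 of H2-D1 have names ending in x, which marks probes that may also bind related transcripts, so signal from other class I heavy chains may be included. Beside the brightest, at -2.95, the other 3 of H2-K1 differed by -2.03, -2.87 and -1.13. The brighter of the H2-D1 probe sets without that ending had 73.6 ± 4.04 in DKO and 405 ± 40.6 in WT arrays (difference -2.23). The second B2m probe set differed by -0.92 and the second Tapbp probe set by -1.48. For Tap1 the other 3 probe sets were at 13.3, 3.03 and 2.21 in DKO and at 19.3, 3.61 and 2.20 in WT arrays, and differed by -0.27, -0.04 and 0.000925. With all probe sets of a gene averaged, Tap1 therefore differed by -0.89 and H2-D1 by -1.15.

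**Figure D3:**
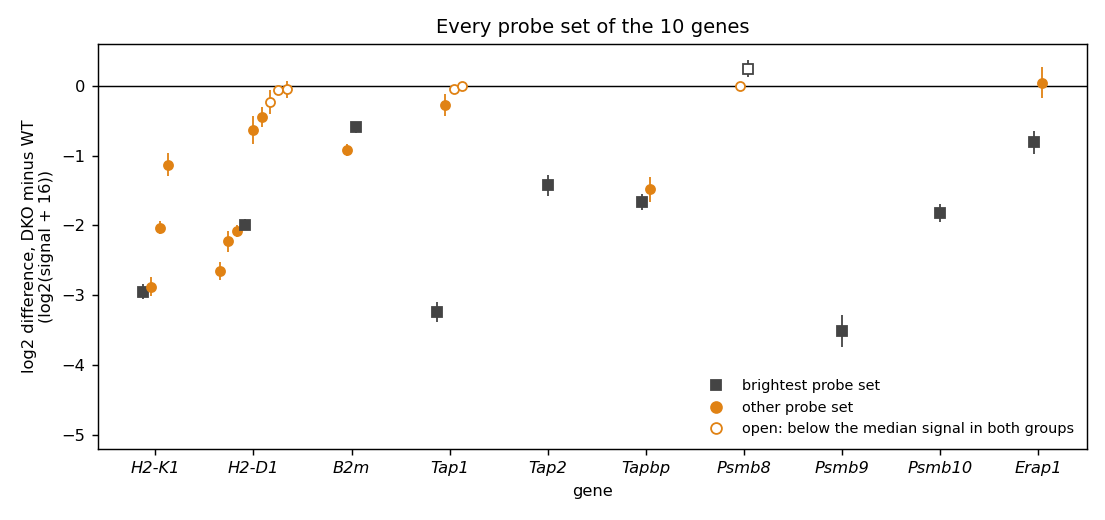
Log2 difference, DKO minus WT, of each of the 28 probe sets of the 10 genes with its 95% interval from limma; squares are the brightest probe set of a gene, circles the others, and open symbols lie below the median signal in both groups. Of the 28, 22 fell, and the open symbols lie between -0.23 and 0.25.

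A further 11 probe sets of class I heavy chains carry several genes in the annotation, so their signal belongs to no single gene. Of these, 4 fell, 2 rose and 5 did neither, beside 27.2% of all probe sets that fell and 24.9% that rose. One that lists both H2-K1 and H2-D1 had 73.3 ± 6.81 in DKO and 678 ± 73.3 in WT arrays, and one that lists 3 genes had 286 ± 20.1 in DKO and 1403 ± 81.9 in WT arrays. One that lists H2-T23 and H2-T-ps went the other way, with 239 ± 27.4 in DKO and 32.6 ± 4.84 in WT arrays (limma adjusted p = 1.6e-10). The other rise was a dim probe set that lists the same genes, at 10.5 ± 2.19 in DKO and 5.77 ± 0.238 in WT arrays. H2-T23 is therefore not counted among the measured heavy chains below.

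The other genes of the pathway were read by lists. Their small differences depend on the scaling of the arrays, since the poly-A spike controls differed by -0.52 between the groups and the hybridization spike controls by 0.26, and each reference moves a bright gene by as much the other way. Of 14 measured genes, out of 28 listed, for other class I heavy chains and class I related proteins, 0 rose and 8 fell, with a median of -0.10. Under poly-A spike scaling 3 rose and 3 fell, and under hybridization spike scaling 0 rose and 12 fell. A total of 8 of the 14 were below the median signal in both groups. H2-Bl had 5.01 ± 0.521 in DKO and 59.4 ± 10.5 in WT arrays (difference -1.83). Cd1d1, which presents lipids, differed by -1.72 and H2-M3, which presents formylated peptides, by -0.88. Fcgrt, the neonatal Fc receptor, differed by -0.45, a direction that turned to 0.05 under poly-A spike scaling.

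The general folding helpers of the endoplasmic reticulum, which also serve class I loading, rose more often than they fell. The 11 genes gave 8 rises and 2 falls, with a median of 0.45. With the arrays scaled to spike controls these counts were 10 and 1 with poly-A controls and 5 and 3 with hybridization controls. The chaperone calreticulin, Calr, had 3260 ± 153 in DKO and 1630 ± 67.5 in WT arrays (difference 0.99, limma adjusted p = 1.11e-09). The thiol oxidoreductase Pdia3 rose by 0.97, the chaperone Hsp90b1 by 0.85, and calnexin, Canx, by 0.48. Tapbpl, the tapasin-related protein that edits class I peptides, fell by 0.75. It had 44.1 ± 1.22 in DKO and 85.3 ± 6.85 in WT arrays, and differed by -0.38 with probe sets averaged.

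Among peptidases that trim or destroy peptides, 1 of 6 measured genes rose and 3 fell (median -0.12). Rises and falls numbered 4 and 2 with poly-A controls and 1 and 5 with hybridization controls. Bleomycin hydrolase, Blmh, had 226 ± 21.1 in DKO and 843 ± 38.4 in WT arrays (difference -1.83, limma adjusted p = 6.19e-11). Nrd1, nardilysin, fell by 0.85, and Npepps, the puromycin-sensitive aminopeptidase, rose by 0.52. The leucine aminopeptidase Lap3 differed by -0.12, and by 0.38 under poly-A spike scaling.

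Of 8 proteasome activators and assembly factors, 2 rose and 6 fell, with a median of -0.53 (rises and falls 2 and 3 with poly-A controls, 1 and 6 with hybridization controls). The 4 assembly chaperones Psmg4, Psmg3, Psmg2 and Psmg1 fell by 1.35, 1.19, 0.71 and 0.70. Under poly-A spike scaling these differences were -0.87, -0.70, -0.21 and -0.20, and Psmg1 did not pass (limma adjusted p = 0.0536). With probe sets averaged Psmg4, Psmg3 and Psmg2 were at -0.71, -0.44 and -0.40. Psmg4 had 132 ± 3.19 in DKO and 361 ± 4.88 in WT arrays, with no overlap. Psme1, a subunit of the activator that interferon-gamma raises, differed by -0.30 (limma adjusted p = 7.96e-05) and by 0.21 under poly-A spike scaling. Psme2, its partner, was not analysed here.

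**Figure D4:**
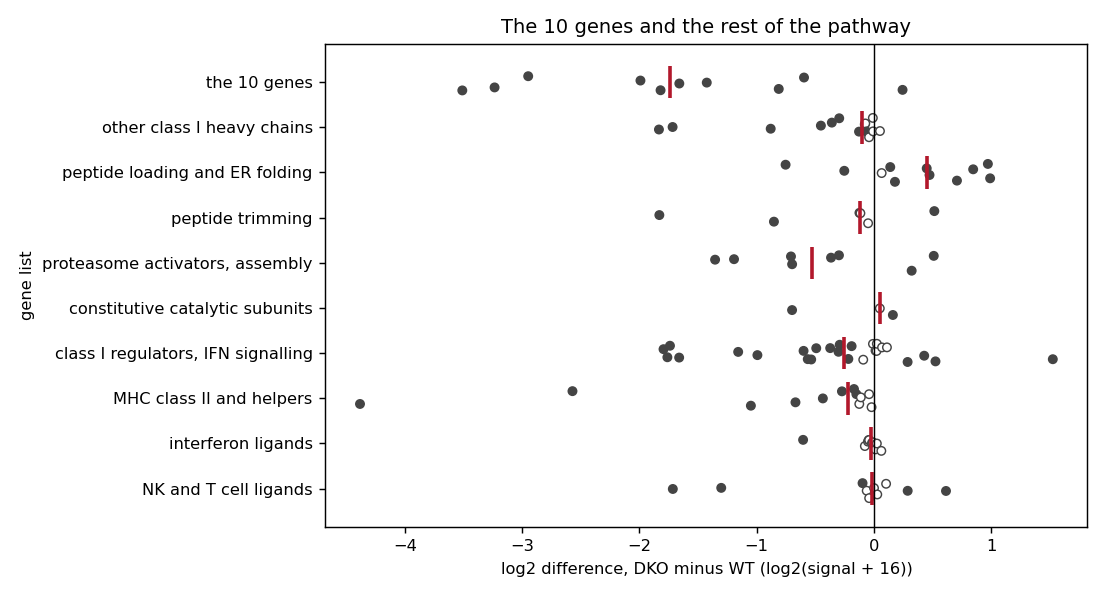
Log2 difference, DKO minus WT, of each measured gene of the 10 genes and of the lists around them; filled points have an adjusted p under 0.05 in limma, and the red bar is the list median. The 10 genes have a median of -1.74, the endoplasmic reticulum helpers one of 0.45, and the other lists lie between -0.53 and 0.05.

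Of 26 measured regulators of class I genes and of interferon-gamma signalling, 4 rose and 15 fell, with a median of -0.25. The counts were 13 and 6 with poly-A controls and 3 and 21 with hybridization controls. Nlrc5, the transactivator of class I genes, had signals of 23.6, 20.7 and 27.3 in the DKO arrays, against 109, 119 and 123 in the WT arrays. Its groups did not overlap (difference -1.74 ± 0.09, limma adjusted p = 1.76e-09), and it was at -1.35 under poly-A spike scaling. The interferon regulatory factor Irf8 had 10.8 ± 2.49 in DKO and 76.8 ± 4.14 in WT arrays (difference -1.79). Relb, a member of the NF-kappa-B family, differed by -1.76. Irf9, the DNA-binding part of the type I interferon response factor, had 109 ± 11.5 in DKO and 377 ± 6.36 in WT arrays (difference -1.66).

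Irf1, the factor that interferon-gamma raises, was bright in both groups. It had 472 ± 32.4 in DKO and 582 ± 49.0 in WT arrays (difference -0.29, limma adjusted p = 0.00148), a direction that turned to 0.21 under poly-A spike scaling (limma adjusted p = 0.0437). The receptor chain Ifngr1, which binds interferon-gamma, was higher, with 743 ± 28.6 in DKO and 247 ± 5.36 in WT arrays (difference 1.53, limma adjusted p = 1.28e-11). Its partner chain Ifngr2 was lower, with 324 ± 15.6 in DKO and 663 ± 82.2 in WT arrays (difference -0.99, limma adjusted p = 8.79e-08). Ifngr2 was at -0.49 under poly-A spike scaling. Of 10 measured interferon ligands, 8 were below the median signal in both groups and 1, Ifnz, fell, with 109 ± 9.93 in DKO and 173 ± 11.1 in WT arrays. Under poly-A spike scaling Ifnz did not pass (difference -0.14, limma adjusted p = 0.227). Under poly-A spike scaling 6 of the 10 rose and 0 fell, and under hybridization spike scaling 0 rose and 7 fell. All genes shifted the same way under these scalings, as given below, so the counts are no result about the ligands.

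Of 12 measured MHC class II genes and helpers, which present peptides taken up from outside the cell, 0 rose and 8 fell, with a median of -0.22 (rises and falls 2 and 5 with poly-A controls, 0 and 12 with hybridization controls). Cd74, the invariant chain, had signals of 19.4, 17.2 and 21.9 in the DKO arrays, against 672, 681 and 828 in the WT arrays. Its groups lay wide apart (difference -4.38 ± 0.08, limma adjusted p = 3.88e-13). Ifi30, a thiol reductase of the endosome that interferon-gamma raises, had 132 ± 12.5 in DKO and 861 ± 28.4 in WT arrays (difference -2.57). H2-DMa fell by 1.05, or 0.57 with probe sets averaged, and H2-Ab1 by 0.67. Among 10 measured ligands of natural killer and T cells 2 rose and 3 fell (5 and 2 with poly-A controls, 1 and 5 with hybridization controls). The costimulatory receptor Cd40 differed by -1.71, the NKG2D ligand Ulbp1 by -1.30, Pvr by 0.62 and the checkpoint ligand Cd274 by 0.29. Under hybridization spike scaling Pvr was at 0.37, and Cd274 was at 0.11 and did not pass (limma adjusted p = 0.252).

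As deposited, 6455 genes fell and 4411 rose. Under scaling to poly-A spike controls, 2809 of the 18193 genes fell and 10435 rose, and with hybridization spike controls 10722 fell and 3036 rose. The spike-scaled counts of each list and marker set are to be read beside this shift of all genes. Genes above the median signal had a median difference of -0.09 as deposited, of 0.30 with poly-A controls and of -0.29 with hybridization controls. Relative to those medians, 9 of the 10 genes were lower in DKO under each of the 5 scalings, and B2m was at -0.50 as deposited, -0.38 with poly-A controls and -0.57 with hybridization controls. The median of the 10 genes relative to those medians was -1.65, -1.55 and -1.69 under the same 3 scalings. A change of scale moves bright genes and their median almost alike, so these scalings are not separate checks. By definition, as many genes above the median signal lie below their median difference as above it.

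**Figure D5:**
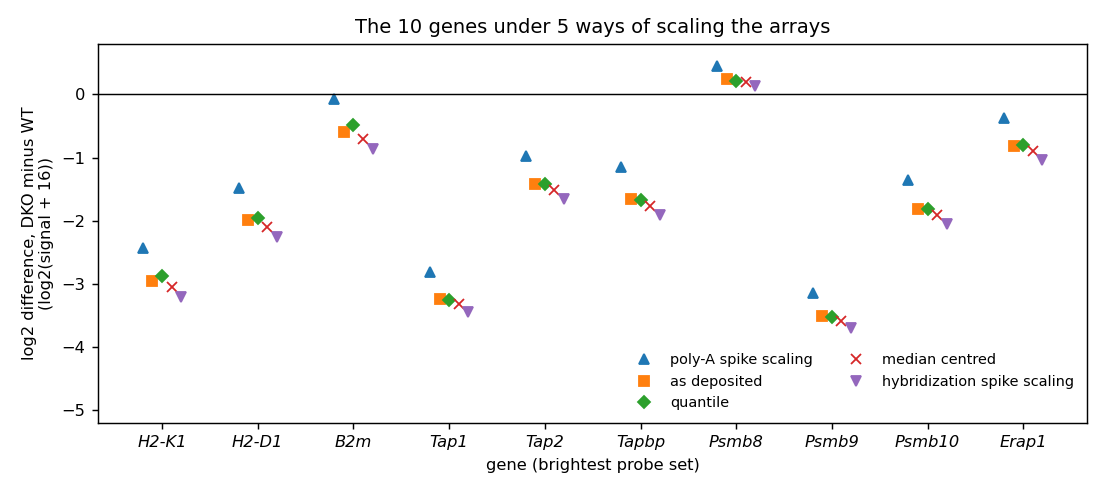
Log2 difference, DKO minus WT, of the brightest probe set of each gene under 5 ways of scaling the arrays. Of the 9 genes below 0, B2m lies nearest to it, at -0.08 under poly-A spike scaling, and Psmb8 lies above 0 under all 5.

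Markers of cell types were read as well, and their part in the result was not tested. As deposited, 35.5% of all genes fell and 24.2% rose. Rises exceeded that share only among the fibroblast markers (66.7%), and falls only among the epithelial ones (42.9%). The counts of the leukocyte, dendritic cell and endothelial lists are therefore no sign by themselves of a shift in cells. Of 12 fibroblast markers 8 rose and 2 fell (10 and 2 with poly-A controls, 7 and 3 with hybridization controls), and their summed signal ran from 20229 to 21006 in DKO and from 12598 to 13527 in WT arrays. Vimentin, Vim, was bright in both, at 7306 ± 55.7 in DKO and 5288 ± 422 in WT arrays. The collagen gene Col1a2 was at 9.71 ± 2.16 in DKO and 2284 ± 143 in WT arrays. The growth factor receptor Pdgfra was at 1789 ± 56.7 in DKO and 9.99 ± 0.999 in WT arrays. Each group thus had a defining marker near the floor, and 3 of the 12 were dim in both. The other collagen genes of the list went both ways, as Col1a1 rose by 1.80 and Col3a1 fell by 5.99. Of 15 measured macrophage and leukocyte markers 3 rose and 2 fell (12 and 1 with poly-A controls, 3 and 7 with hybridization controls), with summed signals of 601 to 642 in DKO and 261 to 278 in WT arrays. The pan-leukocyte gene Ptprc was near the floor in both, at 2.64 ± 0.309 in DKO and 2.59 ± 0.145 in WT arrays. A total of 9 of the 15 were dim in both groups, and the brightest was Cd14, with 401 ± 24.5 in DKO and 99.9 ± 8.32 in WT arrays.

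Of 6 measured dendritic cell markers 0 rose and 2 fell (3 and 2 with poly-A controls, 0 and 5 with hybridization controls), with summed signals of 55.6 to 64.6 in DKO and 341 to 395 in WT arrays. Most of the WT sum was Batf3, a transcription factor, at 20.4 ± 4.66 in DKO and 279 ± 27.1 in WT arrays. The defining marker Itgax was dim, at 6.68 ± 0.636 in DKO and 7.02 ± 0.257 in WT arrays. Of 6 endothelial markers 0 rose and 0 fell as deposited (2 and 0 with poly-A controls, 0 and 4 with hybridization controls), with summed signals of 34.9 to 41.9 in DKO and 38.4 to 46.2 in WT arrays. Of 7 epithelial markers 0 rose and 3 fell (2 and 1 with poly-A controls, 0 and 6 with hybridization controls), with sums of 52.3 to 62.2 in DKO and 90.4 to 108.2 in WT arrays.

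Of the 10 genes, 7 lie on chromosome 17, and B2m, Psmb10 and Erap1 lie on chromosomes 2, 8 and 13. The 66 measured genes nearest to the 10, up to 5 on each side, had a median difference of -0.07, and 30 fell and 13 rose (45.5% and 19.7%, against 35.5% and 24.2% of all genes). Without symbols starting with H2-, 21 of 54 fell and 13 rose, with a median of -0.04. The neighbours thus had a median close to that of all genes.

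The genes whose pattern over the 6 arrays was most like the mean pattern of the 10 were Yars, Tctex1d2, Prcp, Sptlc2 and Acat1. Likeness was the Euclidean distance between deviations from each gene's own mean log2 value, and it ran from 0.0558 for Yars to 0.0838 for Acat1. Yars, the tyrosyl-tRNA synthetase, had 188 ± 6.11 in DKO and 673 ± 9.01 in WT arrays. With 6 arrays in 2 tight groups, this measure picks genes with a difference near that of the 10, and the 5 genes differed by -1.76 to -1.80. The coefficient of variation of the 10 genes within groups ran from 1.73% for H2-D1 to 31.5% for Psmb9 in DKO and from 0.936% for B2m to 17.7% for Psmb8 in WT arrays.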

How the data were processed

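The table the authors deposited holds 1 linear intensity for each probe set on each array. The submitters' processing notes name MAS5, but no version and no scaling. Biotinylated cRNA was made from 6 µg of RNA, per the labels' protocols. Of 45101 probe sets, 64 were controls, 34945 carried 1 gene in the platform annotation, 932 several, and 9160 were unnamed here; 34741 matched the RefSeq gene table of GRCm38.p6 by Entrez number. Depth does not apply to arrays, and their number limits the precision. No detection calls were used; a probe set is called dim where both group means lie below the median of all probe sets.

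Each gene was its probe set with 1 gene and the highest mean of log2(signal + 16), giving 18193 genes. Groups came from the sample titles. Differences, DKO minus WT, are on that log2 scale, which understates changes of dim genes. They were tested with limma 3.58.1 (lmFit, eBayes with trend) in R 4.3.3, on both sides, and p-values were adjusted by Benjamini-Hochberg over all genes or all probe sets. The fit was also run on simulated data with independent noise and few changed genes. Far more genes passed in these arrays, so that run does not check the calls made here. Pairs of genes were compared by exact permutation over the 6 arrays. Motifs were counted and figures drawn with Python 3.11.15 and matplotlib 3.10.9.

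Named genes were the 10 members, Abl1 and Abl2, up to 4 genes with the largest passing differences per list, and fixed regulators and partners. Up to 4 bright markers per list and the 5 likest genes were named too. Ptprc, Pdgfra, Col1a1, Col3a1 and Ifngr2 were named after their values were seen. Members and lists were chosen with earlier results of these data known. Alternatives were other offsets (1 and 64), quantile, median, poly-A and hybridization spike scaling, dim genes left out, probe sets averaged, probe sets with the suffix x, s or a left out, other variance models, array weights, the replicate number as a block, and each array left out.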

Additional observations from a re-analysis of the deposited data

How the results depend on the processing

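Across the alternatives run, the number of the 10 genes lower in DKO was 9, except 8 under poly-A spike scaling and 6 when probe sets with the suffix x, s or a were left out, which left 6 genes. The number higher was 1, but 0 with either dim genes or those suffixed probe sets left out (0 in each case), because Psmb8 is then not tested. B2m lost its call under poly-A spike scaling (-0.0788, limma adjusted p = 0.608), and its values ran down to -0.86 under hybridization spike scaling. Over all genes, 2809 fell and 10435 rose under poly-A spike scaling, and 10722 fell under hybridization spike scaling. Over the lists of the pathway, 47 fell and 18 rose as deposited, 22 fell and 47 rose under poly-A, and 73 fell and 11 rose under hybridization spike scaling. Member probe sets that rose numbered 1 as deposited, 4 with poly-A controls and 0 with hybridization controls. Between genes, the contrasts moved with the offset, since the added constant shrinks changes of dim genes. With an offset of 1 the values were 0.41 for Psmb8 minus Psmb5, -3.78 for Psmb9 minus Psmb6, -2.03 for Psmb10 minus Psmb7, -2.13 for Tap1 minus Tap2 and -0.74 for Psmb9 minus Tap1. With an offset of 64 they were -0.0709, -1.65, -1.51, -1.32 and 0.0522, and H2-K1 minus B2m was -2.28. With probe sets averaged they were -0.0436 for Psmb8 minus Psmb5, -1.49 for H2-K1 minus B2m, -1.09 for H2-K1 minus H2-D1, 0.54 for Tap1 minus Tap2 and -2.62 for Psmb9 minus Tap1. For Psmb8 minus Psmb5, poly-A spike scaling gave -0.23 and hybridization spike scaling 0.24. The causes of these other moves were not tested. Leaving out each array in turn gave 5973 to 6258 genes lower and 4176 to 4327 higher over all genes.

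The labels give both groups replicate numbers 1 to 3, and same-numbered arrays deviated together with correlations of 0.03, 0.13 and 0.19. Arrays with different numbers were not compared in this way, so whether the numbers pair the arrays was not settled. With the replicate number as a block, 9 of the 10 genes fell and 1 rose, 22 member probe sets fell, and 6477 genes fell and 4458 rose over all genes. The small number of arrays, and signal near the floor for Psmb8 and for Psmb9 in DKO, limit what can be read.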
